A study of Mus musculus with 4 samples.

Results

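The intrinsic, or mitochondrial, apoptosis pathway was followed in mouse retina through 9 genes, taken as the rows of the deposited table whose symbol is Bax, Bak1, Bcl2, Bcl2l1, Bcl2l11, Bbc3, Mcl1, Apaf1 or Casp9. All 9 were present among the 23336 genes of the table, and all 9 passed the filter on low values. RNA was sequenced from retinas of Opn4-DTA/DTA mice and of wild-type (WT) littermates. Opn4 encodes melanopsin, the light-sensing protein of a small class of ganglion cells, and in the mutant the A chain of diphtheria toxin (DTA) sits at this locus on each of its alleles. Each group had 2 libraries, from mice of the C57/Bl6 background at postnatal day 8 (P8), and no drug or other agent was named for either group. The labels call the tissue dissociated retinal cells, whereas the design text speaks of extracts of whole retina. In this model the toxin is made by cells that use the Opn4 locus, so that loss of melanopsin and loss of those cells come together. Whether libraries of the same genotype are separate animals is not stated in the labels, so that each p-value below reflects library-to-library spread alone, which may be technical.

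Intrinsic apoptosis is decided at the outer membrane of mitochondria. The effectors Bax and Bak1 form pores there, the anti-apoptotic proteins Bcl2, Bcl-xL (gene Bcl2l1) and Mcl1 hold them in check, and BH3-only proteins such as Bim (gene Bcl2l11) and Puma (gene Bbc3) relieve that check. Cytochrome c leaving the mitochondria then joins Apaf1 in the apoptosome, which activates caspase 9. The pathway removes surplus neurons from the rodent retina in the first postnatal weeks, and Bax is known to be required for much of the natural death of mouse retinal ganglion cells. Diphtheria toxin A blocks protein synthesis by inactivating elongation factor 2, and cells that make it die.

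The Bcl2 family members share the BH3 core, the stretch through which the proteins bind one another. The coding bases of this core are shown for the 7 family members, since this stretch is what makes them one family and sets BH3-only genes beside pore formers and inhibitors. They were read 5′ to 3′ on the coding strand from GENCODE M21 transcripts (mm10), with the codon of the conserved leucine and the pair of codons ending in the conserved aspartate in capitals.
Bax: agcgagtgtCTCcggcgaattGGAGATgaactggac
Bak1: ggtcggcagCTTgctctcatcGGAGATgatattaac
Bcl2: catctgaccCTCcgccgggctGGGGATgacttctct
Bcl2l1: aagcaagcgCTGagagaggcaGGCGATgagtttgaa
Mcl1: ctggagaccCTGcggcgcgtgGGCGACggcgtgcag
Bcl2l11: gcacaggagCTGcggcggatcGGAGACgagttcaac
Bbc3: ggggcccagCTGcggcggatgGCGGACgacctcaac
These windows lie within coding exons at chr7:45465997-45466032 (minus strand) for Bax, chr17:27022531-27022566 (minus) for Bak1, chr1:106712575-106712610 (minus) for Bcl2 and chr2:152829697-152829732 (minus) for Bcl2l1. Those of Mcl1, Bcl2l11 and Bbc3 lie on the plus strand at chr3:95659427-95659462, chr2:128147141-128147176 and chr7:16313764-16313799. The pattern searched was a leucine codon, 3 codons of any kind, a glycine or alanine codon and an aspartate codon, and it occurred 1 time in each of the 7 coding sequences. It is short: 24.1% of 20323 mouse coding sequences held it somewhere, Apaf1 among them, outside any BH3 core. The BH3-only genes Bcl2l11 and Bbc3 had the most similar windows, with 25 of 36 bases identical, and over all 21 pairs the identity ranged from 13 to 25 bases.

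Expression values are normalized counts, that is, gene counts divided by a size factor of the library. The authors deposited the mean of each group, and the value of each library was recovered from these means. Libraries are named a (larger size factor) and b (smaller) within a genotype, since no recovered value could be tied to a sample label. Total counts ranged from 22202382 to 60833968 per library. Opn4 matched the genotypes, with 1 and 0 counts in the Opn4-DTA/DTA libraries a and b and 369 and 161 counts in the WT libraries a and b. The 6 rod markers were high in all libraries, with a summed level of 397398 and 410478 normalized counts in Opn4-DTA/DTA and 490992 and 424920 in WT. The WT libraries stood apart from each other in their makeup. The summed level of 10 ganglion cell markers was 50122 and 50498 in Opn4-DTA/DTA, against 61272 (library a) and 37856 (library b) in WT. The 5 markers of melanopsin ganglion cells, Opn4 included, summed to 1185 and 1182 in Opn4-DTA/DTA and to 2120 and 1382 in WT. Opn4, the targeted gene, alone held 0.546 and 0 normalized counts in Opn4-DTA/DTA and 428 and 246 in WT libraries a and b. Without Opn4, WT library a would still lie above both Opn4-DTA/DTA libraries, but WT library b would lie below both. Pigment epithelium markers (6 genes) summed to 3781 and 2967 in Opn4-DTA/DTA, against 6872 (library a) and 2794 (library b) in WT. Red blood cell markers summed to 1387 and 1424 in Opn4-DTA/DTA and to 1164 and 929 in WT, with 2 of the 4 in the table, Hba-a1 and Hba-a2, listed at 0 in every library. In whole tissue, fewer cells of a type and less RNA per cell cannot be told apart.

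None of the 9 members was called different between Opn4-DTA/DTA and WT retinas. In limma with Benjamini-Hochberg adjustment over 15003 genes, 0 of 9 passed the threshold of 0.05, against 0.0200% of all genes tested (3 genes: 0.00667% higher and 0.0133% lower in Opn4-DTA/DTA). At an unadjusted p under 0.05 the limma count was also 0 of 9, against 1.66% of all genes, and voom and the authors' deposited table likewise called 0 of 9. The share over all genes is itself below a fraction of 0.05, which evenly spread p-values would give, so that 0 of 9 says little. Log2 fold changes lay between -0.08 (Bak1) and 0.10 (Bax and Apaf1), with 5 members above 0 and 4 below. Their median was 0.00172, beside a median of -9.64e-05 over all genes tested. The effectors, the inhibitors and the BH3-only genes each had members on either side of 0, and both apoptosome genes were above 0. A p above the threshold does not show that levels were equal. The 95% intervals below give the size of change the data leave room for in RNA of all sampled cells together. Cells that use the Opn4 locus are a small class among them. A change confined to those cells, or one that was over before P8, was not tested.

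**Figure D1:**
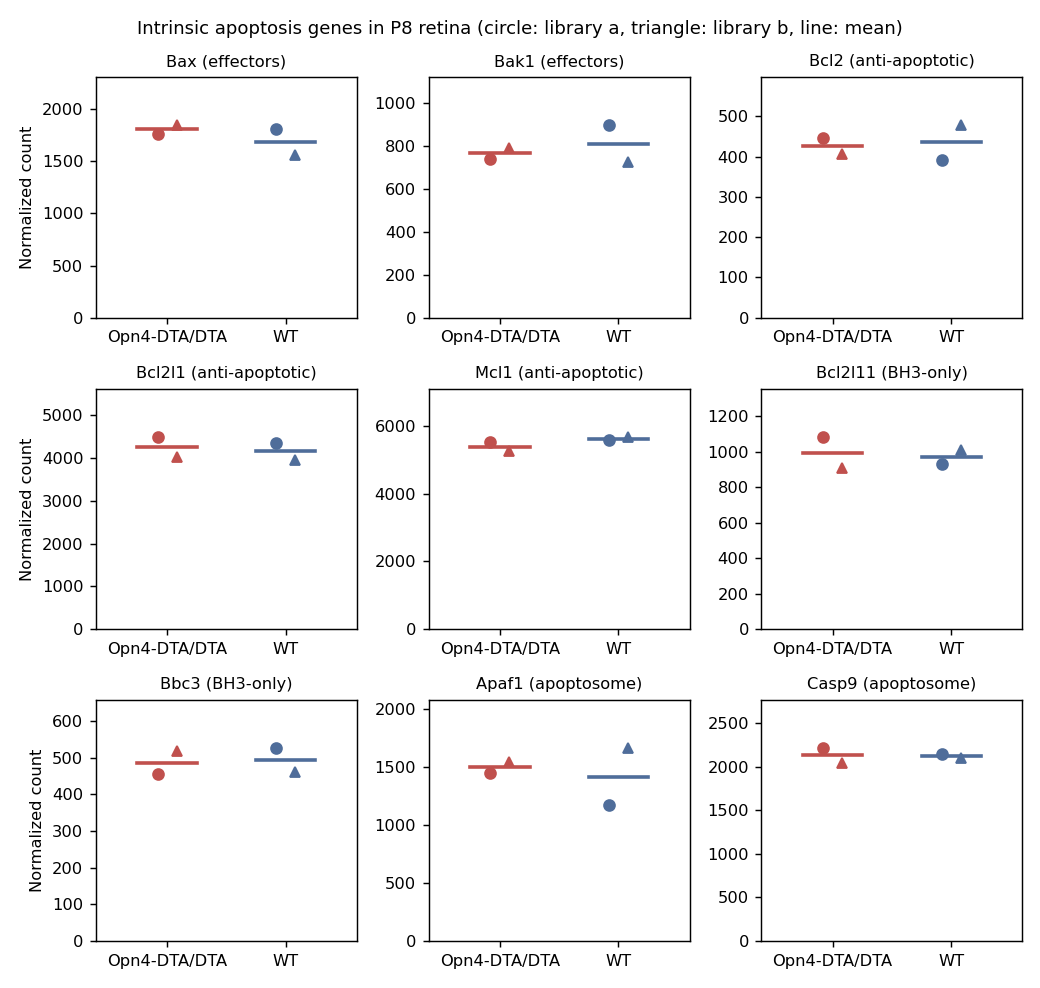
Normalized count (vertical axis, from 0) of each of the 9 genes in Opn4-DTA/DTA and WT retinas; circles are library a, triangles library b and lines the mean of 2 libraries. The groups overlap in every panel except that of Mcl1, and Apaf1 has the widest gap between libraries of 1 genotype, 1172 against 1664 in WT.

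Among the effectors, Bax, on chromosome 7 from 45461695 to 45466898 (mm10, minus strand), was the more abundant. It stood at 1761 and 1842 normalized counts in Opn4-DTA/DTA libraries a and b, against 1804 and 1561 in WT libraries a and b. WT library b was the low one, and WT library a lay between the Opn4-DTA/DTA libraries, so that the groups overlapped. The means were 1801 ± 57.0 in Opn4-DTA/DTA and 1683 ± 172 in WT (SD, n = 2 each). The log2 fold change was 0.10 (SE 0.11, 95% interval -0.16 to 0.36, limma adjusted p = 0.9997). Exons of Bax overlap those of Gm45808 on the same strand, where counting by strand cannot tell the genes apart, and this holds for the ratio of Bax to Bcl2 as well. The deposited table holds no gene under the symbol Gm45808. Bak1, the second pore former, on chromosome 17 from 27019812 to 27028626 (minus strand), stood at 741 and 791 in Opn4-DTA/DTA and at 897 and 727 in WT. Here the WT libraries enclosed both Opn4-DTA/DTA libraries. Its log2 fold change was -0.08 (95% interval -0.40 to 0.24, limma adjusted p = 0.9997). Exons of Bak1 overlap those of Ggnbp1 on the opposite strand, which stood at 86.3 and 70.6 normalized counts in Opn4-DTA/DTA and at 95.2 and 94.9 in WT. Whether counting used strand is not given in the sources used here.

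Mcl1, an inhibitor whose protein is short-lived, was the most abundant member. It lies on chromosome 3 from 95658721 to 95663178 (plus strand) and stood at 5525 and 5244 normalized counts in Opn4-DTA/DTA, against 5567 and 5673 in WT. Both Opn4-DTA/DTA libraries lay below both WT libraries, the only case among the 9 members in which the groups did not overlap. Over all genes tested the groups were apart in 23.5%, and apart with Opn4-DTA/DTA lower in 12.3%, so that 1 of 9, or 11.1%, is no more than that background. The means of Mcl1 were 5385 ± 199 in Opn4-DTA/DTA and 5620 ± 75.4 in WT (SD, n = 2 each), a log2 fold change of -0.06 (95% interval -0.27 to 0.14, limma adjusted p = 0.9997). On the fold scale the interval ran from 0.830 to 1.11, the narrowest of the 9.

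Bcl2l1 encodes Bcl-xL, a main survival factor of neurons, and lies on chromosome 2 from 152780668 to 152831682 (minus strand). It stood at 4487 and 4025 normalized counts in Opn4-DTA/DTA and at 4342 and 3958 in WT. In each genotype library a was the higher one, and the groups overlapped (log2 fold change 0.04, 95% interval -0.20 to 0.27, limma adjusted p = 0.9997). Bcl2, the founding inhibitor, on chromosome 1 from 106538179 to 106714290 (minus strand), was the least abundant of the 3, at 445 and 407 in Opn4-DTA/DTA and at 392 and 477 in WT. The WT libraries lay on either side of the Opn4-DTA/DTA pair. The log2 fold change of Bcl2 was -0.02 (95% interval -0.38 to 0.33, limma adjusted p = 0.9997). Exons of Bcl2 overlap those of D630008O14Rik on the opposite strand, a symbol that the deposited table does not hold. Splice forms were counted together, so that the long and short products of Bcl2l1 and Mcl1, which act in opposite ways, were not distinguished.

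The BH3-only genes are the pathway's sensors, induced by p53 in the case of Bbc3 and by loss of trophic support in the case of Bcl2l11. Bcl2l11, on chromosome 2 from 128126038 to 128162547 (plus strand), stood at 1084 and 907 normalized counts in Opn4-DTA/DTA and at 929 and 1009 in WT. Its widest gap was within Opn4-DTA/DTA, where library a exceeded library b 1.20-fold. The log2 fold change was 0.03 (95% interval -0.26 to 0.33, limma adjusted p = 0.9997). Bbc3, on chromosome 7 from 16309583 to 16318334 (plus strand), stood at 455 and 518 in Opn4-DTA/DTA and at 526 and 462 in WT. The values of the genotypes were interleaved, and the log2 fold change was -0.02 (95% interval -0.35 to 0.31, limma adjusted p = 0.9997).

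Of the apoptosome genes, Casp9 had the smallest difference of all members. This initiator caspase gene on chromosome 4 from 141793612 to 141815975 (plus strand) stood at 2208 and 2046 normalized counts in Opn4-DTA/DTA and at 2146 and 2101 in WT. Its log2 fold change was 0.00 (95% interval -0.22 to 0.23, limma adjusted p = 0.9997). Exons of Casp9 overlap those of the pancreatic enzyme genes Cela2a and Ctrc on the opposite strand, which together had 1 count over the 4 libraries. Apaf1, the scaffold of the apoptosome, lies on chromosome 10 from 90989311 to 91082743 (minus strand). It stood at 1452 and 1548 in Opn4-DTA/DTA, against 1172 (library a) and 1664 (library b) in WT. The WT libraries were the lowest and the highest of the 4, and the means were 1500 ± 68.2 in Opn4-DTA/DTA and 1418 ± 348 in WT (SD, n = 2 each). The log2 fold change of Apaf1 was 0.10 with the widest interval of the 9 (SE 0.16, 95% interval -0.28 to 0.49, limma adjusted p = 0.9997). Without WT library a it was -0.15 and without WT library b 0.35, with limma adjusted p-values of 0.397 and 0.0673.

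**Figure D2:**
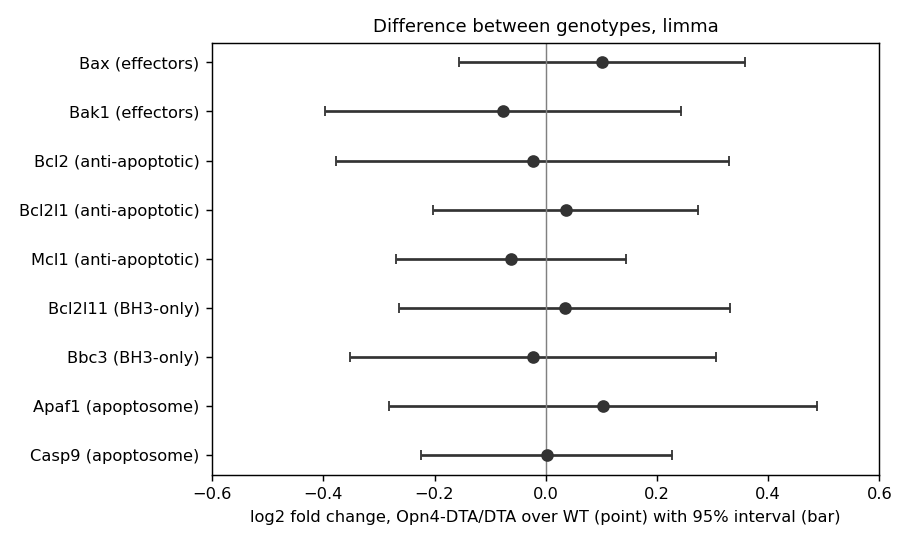
Log2 fold change of Opn4-DTA/DTA over WT (points, horizontal axis) with 95% intervals from limma (bars) for the 9 genes in order of role. Every interval spans 0, the one of Mcl1 (-0.27 to 0.14) is the narrowest and the one of Apaf1 (-0.28 to 0.49) the widest.

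For most members the difference between libraries of 1 genotype was larger than that between the genotypes. A difference of 2 single libraries varies more than a difference of 2 group means. This order is therefore likely even with no effect of genotype, and no conclusion is drawn from it. For 7 of 9 members the Opn4-DTA/DTA libraries differed by more than the genotypes did, and for 8 of 9 the WT libraries did. Over all genes tested the Opn4-DTA/DTA libraries differed by more than the genotypes in 58.2%, and the WT libraries in 76.9%. The median absolute log2 ratio over the members was 0.11 between the Opn4-DTA/DTA libraries, 0.19 between the WT libraries and 0.04 between the genotypes. Over all genes these medians were 0.09, 0.20 and 0.07. In each genotype, 5 of 9 members differed between its libraries by more than 2 counting standard errors, so that counting error alone was below the spread seen for them.

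Apaf1 had the largest ratio between the WT libraries, 1.42-fold higher in library b than in library a, a log2 ratio of 0.51 with a counting standard error of 0.06. Bcl2, Bcl2l11 and Mcl1 were also higher in WT library b than in WT library a, and Bax, Bak1, Bcl2l1, Bbc3 and Casp9 lower. The inhibitor Bcl2 and the effectors Bax and Bak1 thus parted between the WT libraries, at log2 ratios (library b over a) of 0.28, -0.21 and -0.30. All 10 ganglion cell markers and all 9 microglia markers were lower in WT library b than in WT library a. So were all 6 rod, all 6 pigment epithelium, all 5 melanopsin ganglion cell and all 4 astrocyte markers. Of the bipolar markers 1 of 6 was lower in WT library b, and of the horizontal cell markers 0 of 4. The remaining marker lists were mixed. The part of this makeup in the members' values was not tested. Bak1 and Bbc3 had the closest patterns among the pore formers and sensors over the 4 libraries, with a root mean square distance of 0.06 between their centred log2 levels. Mcl1 and Casp9 were nearest to each other at 0.04, and the nearest member to Apaf1 was Bcl2 at 0.13. These distances rest on 4 libraries and are descriptive only. They are small for any pair of genes that vary little, as Mcl1 and Casp9 did, which moved in opposite directions between the WT libraries.

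**Figure D3:**
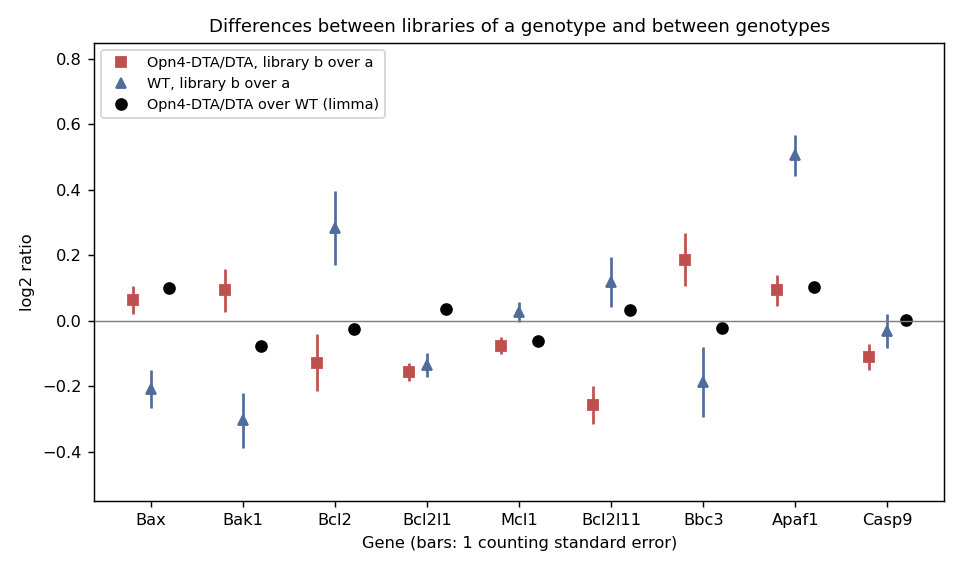
Log2 ratio of library b over library a within Opn4-DTA/DTA (squares) and within WT (triangles), each with 1 counting standard error, beside the log2 fold change between genotypes (black circles). The WT ratio of Apaf1, 0.51, exceeds every difference between the genotypes, which stay between -0.08 and 0.10. Differences between genotypes compare group means, which vary less than single libraries.

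An effector was set beside an inhibitor as the ratio of Bax to Bcl2 counts, which does not depend on scaling between libraries. Counts in it were not divided by exon length, which is 1576 bases for Bax and 9157 for Bcl2. Since Bcl2 was the least abundant of the inhibitors, the ratio does not measure the balance of all effectors to all inhibitors. The ratio was 3.96 and 4.52 in the Opn4-DTA/DTA libraries a and b and 4.60 and 3.27 in the WT libraries. WT held both the highest and the lowest value. On the log2 scale the ratio averaged 2.08 ± 0.14 in Opn4-DTA/DTA and 1.96 ± 0.35 in WT (SD, n = 2 each), a difference of 0.13 with an exact two-sided permutation p of 1. A comparison of 2 libraries against 2 cannot give a p below 0.333. The difference was -0.12 without WT library b.

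Levels were compared between genes per kilobase of exon, using the combined exon length of each gene in GENCODE M21. Mcl1 led at 1575 ± 58.2 normalized counts per kb in Opn4-DTA/DTA and 1644 ± 22.1 in WT (SD, n = 2 each). Bax followed at 1143 ± 36.1 and 1068 ± 109 per kb, and Bcl2l1 at 928 ± 71.1 and 905 ± 59.3 per kb, each in Opn4-DTA/DTA and then WT. Casp9 came next at 409 per kb in either genotype, then Bak1 at 318 per kb in Opn4-DTA/DTA and 337 in WT, and Bbc3 at 229 and 233. Apaf1 and Bcl2l11, at 166 and 124 per kb in Opn4-DTA/DTA and 157 and 121 in WT, were the only neighbours in this order whose ranges over the 4 libraries overlapped. Bcl2 was lowest at 46.5 ± 2.91 per kb in Opn4-DTA/DTA and 47.5 ± 6.58 in WT. Exon length counts every annotated exon, whether or not it is used in retina.

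**Figure D4:**
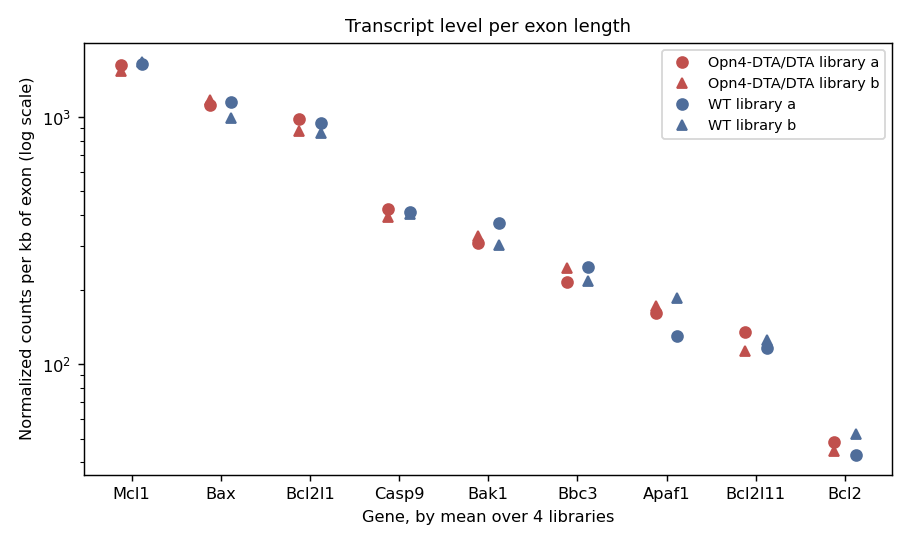
Normalized counts per kb of exon (vertical log axis) for the 9 genes ordered by their mean over 4 libraries, with Opn4-DTA/DTA in red and WT in blue, library a as circles and library b as triangles. Mcl1, Bax and Bcl2l1 form the top of the order and Bcl2 lies at the bottom, at no more than 52.1 normalized counts per kb in any library.

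Around the 9 members, 48 other cell death genes were listed, and 42 of them passed the filter. In limma 0 of the 42 passed at an adjusted p of 0.05, against 0.0200% of all genes, and 1 of 42, Birc5, had an unadjusted p under 0.05, against 1.66% of all genes. With voom 0 of 42 passed as well. The groups did not overlap for 12 of 42, or 28.6%, against 23.5% of all genes. The median log2 fold change of the 42 was 0.04, with 25 above 0 and 17 below. The 6 genes under the filter were the inhibitor genes Bcl2a1a, Bcl2a1d and Bcl2l10, the p53 relative Trp73, and the death receptor gene Fas with its ligand Fasl, each with 11 counts or fewer in every library.

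Survivin, the product of Birc5, acts both as an inhibitor of apoptosis and in mitosis, and its gene stood at 136 and 131 normalized counts in Opn4-DTA/DTA, against 88.2 and 61.2 in WT. Both Opn4-DTA/DTA libraries were above both WT libraries. The log2 fold change was 0.85 (SE 0.24, 95% interval 0.29 to 1.41), with an unadjusted p of 0.00845 and a limma adjusted p of 0.9997. The 7 proliferating progenitor markers summed to 11323 and 10526 in Opn4-DTA/DTA and to 8939 and 10113 in WT. Among them Ccnb1, the cyclin of mitosis, stood at 125 and 98.2 in Opn4-DTA/DTA and at 49.9 and 49.0 in WT. Top2a stood at 834 and 645 in Opn4-DTA/DTA and at 500 and 569 in WT. Cdk1 stood at 289 and 226 in Opn4-DTA/DTA and at 171 and 182 in WT. In this order their unadjusted limma p-values were 0.00151, 0.0217 and 0.0207 (limma adjusted p = 0.9997 for each). Single values of Ccnd1, Sox2 and Pcna are not reported here. Mki67, a marker of cycling cells, stood at 918 and 610 in Opn4-DTA/DTA and at 536 and 608 in WT, so that the b libraries were level. Their part in the Birc5 value was not tested.

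Of 6 other caspase and nuclease genes none passed, with 3 above 0 and 3 below. Casp6, an effector caspase gene, stood at 415 and 427 normalized counts in Opn4-DTA/DTA and at 399 and 367 in WT. Both Opn4-DTA/DTA libraries lay above both WT libraries, with a log2 fold change of 0.14 (limma adjusted p = 0.9997). Casp2 averaged 1590 ± 43.5 in Opn4-DTA/DTA and 1493 ± 290 in WT (SD, n = 2 each), with overlapping groups.

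The 11 tested Bcl2 family genes beyond the members had a median log2 fold change of 0.05, with 8 above 0 and none called. Bid, which links death receptors to mitochondria, stood at 519 and 536 normalized counts in Opn4-DTA/DTA and at 527 and 422 in WT. The Bax relative Bok stood at 462 and 394 in Opn4-DTA/DTA and at 435 and 315 in WT. The groups overlapped for Bid and for Bok. Bcl2a1b stood at 18.6 and 7.16 in Opn4-DTA/DTA and at 6.96 and 7.65 in WT, with library a of Opn4-DTA/DTA alone being high. Its counts are uncertain because near-identical copies of the gene exist. Of the 10 mitochondrial factors and inhibitors of apoptosis (IAPs), 5 were above 0 and 5 below, with a median of -0.00243. Cycs, encoding cytochrome c, averaged 214 ± 5.10 in Opn4-DTA/DTA and 199 ± 14.5 in WT, and is uncertain because processed copies exist. The mitochondrial nuclease gene Endog averaged 245 ± 6.68 in Opn4-DTA/DTA and 263 ± 20.8 in WT.

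Upstream, 9 of 10 genes of p53 and stress signalling were tested, with 4 above 0, 5 below and none called. Jun, a transcription factor active in injured ganglion cells, stood at 4042 and 4384 normalized counts in Opn4-DTA/DTA and at 4591 and 5063 in WT. Ddit3, which encodes the stress factor Chop, stood at 744 and 789 in Opn4-DTA/DTA and at 897 and 848 in WT. Both genes had Opn4-DTA/DTA libraries below the WT libraries, with log2 fold changes of -0.20 and -0.19 (limma adjusted p = 0.9997 for each). Foxo3, a transcription factor known to act on Bcl2l11, averaged 2399 ± 58.7 in Opn4-DTA/DTA and 2650 ± 521 in WT. Of the death receptor route, 6 of 8 genes were tested, with 5 above 0 and a median of 0.12. Casp8, its initiator caspase, stood at 121 and 133 in Opn4-DTA/DTA and at 110 and 87.2 in WT, a log2 fold change of 0.37 (95% interval -0.13 to 0.87, limma adjusted p = 0.9997). Leaving out WT library a gave 0.54 (limma adjusted p = 0.186), and leaving out WT library b gave 0.20 (limma adjusted p = 0.696). Cflar, which holds Casp8 in check, averaged 1819 ± 92.8 in Opn4-DTA/DTA and 1641 ± 309 in WT. Tnfrsf10b, the mouse death receptor for TRAIL, stood at 57.9 and 56.3 in Opn4-DTA/DTA and at 67.3 and 65.8 in WT.

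**Figure D5:**
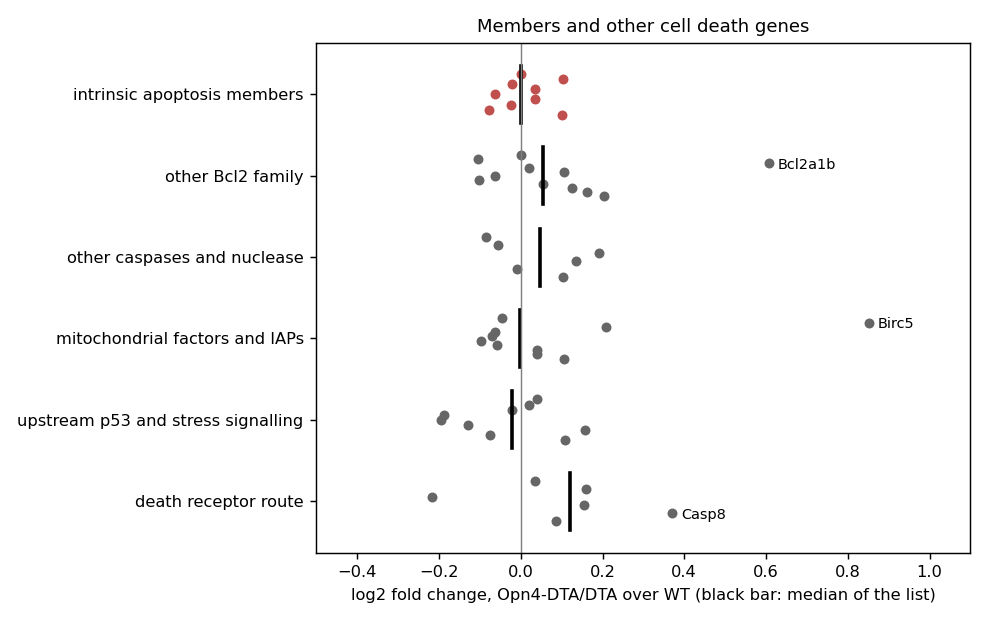
Log2 fold change of Opn4-DTA/DTA over WT (horizontal axis) for each tested gene, with the 9 members in the top row and the other cell death lists in the rows under it; black bars are medians. The members lie between -0.08 and 0.10, and Birc5 at 0.85 lies farthest from 0.

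The fold changes of some other cell death genes depended on which WT library was kept. The genes named here were picked because they passed the threshold in the fit without WT library a, which kept a single WT library. In that fit the log2 fold change was 1.11 for Birc5 and 0.55 for Cdkn1a, the p53 target that stops the cell cycle. It was -0.33 for Foxo3 and -0.36 for Birc6, a giant inhibitor of apoptosis. Without WT library b the values were 0.59 for Birc5, -0.23 for Cdkn1a, 0.07 for Foxo3 and 0.27 for Birc6. Only Birc5 kept its sign. These signs follow from the order of the library values given here and add nothing to it. Groups that do not overlap, as for Birc5, occurred in 23.5% of all genes tested. Cdkn1a stood at 890 and 734 normalized counts in Opn4-DTA/DTA, against 949 (library a) and 552 (library b) in WT. For Birc6 the values were 6940 and 6149 in Opn4-DTA/DTA, against 5433 (library a) and 8359 (library b) in WT. Foxo3 stood at 2357 and 2440 in Opn4-DTA/DTA, against 2281 (library a) and 3018 (library b) in WT. The WT libraries thus enclosed both Opn4-DTA/DTA libraries for Cdkn1a, Birc6 and Foxo3, but not for Birc5.

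In the authors' deposited table the 9 members had log2 fold changes from -0.05 (Mcl1) to 0.06 (Bax), and 0 of 9 passed, against 0.113% of the 15003 genes to which that table gives an adjusted p. The lowest unadjusted p of a member in the authors' deposited table was 0.376, for Bax. For Bax the log2 ratio of the means in the authors' deposited table was 0.10, and for Mcl1 -0.06, so that its listed fold changes are not plain ratios of those means.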

How the data were processed

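Directional libraries of polyadenylated RNA from P8 retina were read on a HiSeq2500 instrument, per the labels' protocols. The submitters' processing notes list FastQC, STAR, HTSeq, DESeq2 and the mm10 build, giving no version. Per the file headers and values, the authors deposited a signal per group (the mean of size-factor normalized counts over 2 libraries), a log2 fold change with its error, a test statistic (a score), p-values and adjusted p-values. 1 empty line of the table was not analysed here. Each mean was solved for the single pair of whole counts that gives it, within a relative tolerance of 3e-13, for all 18327 means above 0 in Opn4-DTA/DTA and 17757 in WT. The chi-square of counts over genes per degree of freedom was 21.9 between the Opn4-DTA/DTA libraries and 30.7 between the WT libraries, so the libraries of a pair are distinct.

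The 15003 genes averaging 10 or more normalized counts entered limma 3.58.1 (R 4.3.3) as log2(normalized count + 1), the prior variance following a trend on mean level, with genotype as the only term. Benjamini-Hochberg adjustment ran over all of these genes. The recovery was tested on simulated pairs of counts, of which 10000 of 10000 were recovered in each genotype. The fit was tested on counts simulated with the same dispersion for all genes and both genotypes. In the data the WT libraries differed more than the Opn4-DTA/DTA libraries, and the outcome of that test is not reported here. Fold changes on this scale understate changes of low genes. Members and gene lists were chosen with earlier results of these data known. All members were named, and of each other list the genes past the threshold or, with none, the 3 with the lowest p. Some genes that this rule names are not reported here. Alternatives were other pseudocounts, filters and scalings, no trend, each library left out, and voom, which was added after the data were seen. Alternatives planned with count models were not run.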

Additional observations from a re-analysis of the deposited data

How the results depend on the processing

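No member passed the threshold under any of 12 alternatives, and the lowest adjusted p was 0.0673 (Apaf1 without WT library b). Of 108 member fold changes under these alternatives, 93 kept their sign and 15 turned, 13 of them with a library left out. With scaling by library totals, which moved the median of all genes by 0.03, Bcl2 stood at 0.00482 and Bbc3 at 0.00602 on the log2 scale. With each library left out in turn, log2 fold changes ranged from -0.15 to 0.35 for Apaf1, -0.23 to 0.075 for Bak1, -0.00272 to 0.21 for Bax, -0.12 to 0.071 for Bbc3, -0.17 to 0.12 for Bcl2, -0.042 to 0.11 for Bcl2l1, -0.095 to 0.16 for Bcl2l11 and -0.053 to 0.057 for Casp9. Mcl1 kept its sign, from -0.10 to -0.02, which follows from its groups not overlapping. The difference in the log2 ratio of Bax to Bcl2 ranged from -0.12 to 0.37. Calls over all genes numbered 3, and 2 with no filter on low values and 0 in limma without a variance trend, and ranged from 10 to 306 with a library left out. Among the other cell death genes they ranged from 0 to 4. The 4, of 42 tested, arose without WT library a, where 306 of 15003 genes were called. They were Birc5, Cdkn1a, Foxo3 and Birc6. That fit kept 1 WT library and could not measure spread within WT, so no conclusion is drawn from these calls. With a library left out, the lone library of a group is assumed to vary like the others. No paired analysis was possible because the deposited columns carry no replicate numbers. The planned edgeR and DESeq2 fits were not run. Depth limits the least abundant members most: Bcl2 had 312 counts and Bbc3 302 in WT library b, the shallowest library.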
